A study of Mus musculus with 43 samples.

Results

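The genes described here encode 41 subunits of respiratory complex I, the enzyme that oxidises NADH at the start of the mitochondrial respiratory chain. Of these, 7 (the mt-Nd genes) lie on mitochondrial DNA and 34 on nuclear chromosomes. The rule names them by gene symbol among 55804 gene rows and sets no threshold on a measured value. All 41 were found in both tables and all 41 passed the filter on low values. Ndufa12 was left out by the selection rule. Ndufb1-ps was not on the list and is described only beside it.

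RNA was sequenced from the brains of mice in 43 libraries, which fall into 6 groups in 2 tables. One table held 6-month-old mice: wild-type mice given vehicle (4 libraries), AppNLGF mice given vehicle (11 libraries) and AppNLGF mice given CDDO-2P-Im (13 libraries). AppNLGF mice carry the allele AppNL-G-F/NL-G-F, a mutated App gene in its own locus. The other table held 11-month-old mice: wild-type mice given vehicle, APP/TAU mice given vehicle and APP/TAU mice given CDDO-2P-Im, with 5 libraries each. APP/TAU mice carry APPV717I::TAUP301L, and the promoter that drives them is not stated in the sources at hand. CDDO-2P-Im (called 2P-Im below) is a synthetic oleanane triterpenoid that induces the transcription factor NRF2. Oral doses of 30 µmol/kg were repeated 3 times a week, over 4 weeks in the AppNLGF table and over 2 weeks in the APP/TAU table. No wild-type group received 2P-Im. The brain region, the sex of the mice and whether each library was 1 animal are not stated, so a p here reflects no more than how far these libraries scattered, which may be technical. The question was how the complex I mRNAs of the nuclear and the mitochondrial genome compared between model and wild type, and between treated and untreated model mice.

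Complex I is built from a matrix arm, which takes electrons from NADH and passes them along iron-sulfur clusters to ubiquinone, and a membrane arm, which pumps protons. The mt-Nd genes encode core subunits of the membrane arm, and nuclear genes encode the core of the matrix arm and all accessory subunits, so assembly needs products of both genomes. The mitochondrial mRNAs are cut from long transcripts of the whole mitochondrial DNA, and they are made and degraded apart from the nuclear mRNAs. Neurons depend on this chain for most of their ATP.

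The mitochondrial members lie close together, and their ends are shown because the overlaps decide which reads can be assigned to 1 gene. In the GRCm38 sequence with GENCODE M21 annotation, the end of mt-Nd4l (chrM:10144-10173, plus strand) and the start of mt-Nd4 (chrM:10167-10196, plus strand) share 7 bases, in capitals. These genes are carried on 1 mRNA. The ends of mt-Nd5 (chrM:13536-13565, plus strand) and mt-Nd6 (chrM:13552-13581, minus strand) share 14 bases on opposite strands, also in capitals. mt-Nd6 is the member read from the other strand. The library kit keeps the strand, but the sources at hand do not say whether the quantification used it, and without it reads from mt-Nd6 and from RNA of the opposite strand cannot be told apart.
mt-Nd4l 3′ end: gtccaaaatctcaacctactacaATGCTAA
mt-Nd4 5′ end: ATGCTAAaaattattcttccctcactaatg
mt-Nd5 3′ end: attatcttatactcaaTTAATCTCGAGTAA
mt-Nd6 3′ end: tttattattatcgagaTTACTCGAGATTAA

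The first 60 of the 348 bases of mt-Nd3 (chrM:9459-9518, plus strand, of a gene that ends at 9806) are printed because its values stood apart from those of the other mt-Nd genes in the APP/TAU table. A nuclear pseudogene, Gm28438, matches it over 345 bases with 1 difference, T3C counted from the first base of mt-Nd3. The capital marks that base. Gm28438 was listed at 1.77 to 3.15% of the summed TPM of both genes in the 6 groups.
mt-Nd3: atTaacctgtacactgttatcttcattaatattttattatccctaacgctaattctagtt

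RefSeq (GRCm38.p6) holds 33 promoter entries for 31 of the nuclear members. Those of Ndufa7, Ndufc2, Ndufa8 and Ndufa11 are shown because these were the 4 nuclear members with the smallest p in scaled APP/TAU vehicle against wild type, and that of Ndufs7 because it had the smallest p in AppNLGF vehicle against wild type. Each runs from 250 bases before to 50 bases after the start that RefSeq gives. That of Ndufs7 lies downstream of the start of the gene in GENCODE M21 (80249121) and so wholly inside the gene as annotated there. Ndufa7 (chr17:33824322-33824621, plus strand) holds TGACCACGC, a match to the antioxidant response element TGACNNNGC that NRF2 binds, in capitals. Ndufa11 (chr17:56717512-56717811, plus strand) holds GCGCATGCGC, a site of the respiratory gene regulator NRF1 (a protein unrelated to NRF2), and TGACCTAGC. Ndufa8 (chr2:36049289-36049588, minus strand) holds GCGCTTGCGC, an NRF1 site read from the other strand. Ndufs7 (chr10:80249199-80249498, plus strand) holds AAGATGGCG, the YY1 site. Ndufc2 (chr7:97399753-97400052, plus strand) holds none of the motifs searched.
Ndufa7: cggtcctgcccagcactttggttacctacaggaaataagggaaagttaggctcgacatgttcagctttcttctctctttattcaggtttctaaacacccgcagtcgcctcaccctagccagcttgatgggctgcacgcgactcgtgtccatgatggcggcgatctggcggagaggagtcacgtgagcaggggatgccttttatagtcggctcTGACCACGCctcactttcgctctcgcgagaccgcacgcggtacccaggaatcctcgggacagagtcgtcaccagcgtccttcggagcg
Ndufa8: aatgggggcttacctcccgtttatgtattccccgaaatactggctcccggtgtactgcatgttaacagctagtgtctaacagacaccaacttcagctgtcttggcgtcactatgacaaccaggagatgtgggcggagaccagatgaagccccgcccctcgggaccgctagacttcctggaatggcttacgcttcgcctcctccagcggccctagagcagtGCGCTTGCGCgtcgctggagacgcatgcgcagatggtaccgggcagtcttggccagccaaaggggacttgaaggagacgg
Ndufa11: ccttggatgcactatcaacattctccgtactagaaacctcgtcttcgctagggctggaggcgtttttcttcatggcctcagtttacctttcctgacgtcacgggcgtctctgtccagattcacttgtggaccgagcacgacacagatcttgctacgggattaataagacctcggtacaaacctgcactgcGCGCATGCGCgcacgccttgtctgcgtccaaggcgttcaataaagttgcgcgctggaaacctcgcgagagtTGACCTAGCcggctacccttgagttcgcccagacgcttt
Ndufs7: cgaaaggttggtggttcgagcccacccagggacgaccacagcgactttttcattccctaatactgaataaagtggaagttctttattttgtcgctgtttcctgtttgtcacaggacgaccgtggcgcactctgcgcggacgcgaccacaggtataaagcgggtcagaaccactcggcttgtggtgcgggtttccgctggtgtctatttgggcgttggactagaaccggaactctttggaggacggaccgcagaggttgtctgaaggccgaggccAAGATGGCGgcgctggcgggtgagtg
Ndufc2: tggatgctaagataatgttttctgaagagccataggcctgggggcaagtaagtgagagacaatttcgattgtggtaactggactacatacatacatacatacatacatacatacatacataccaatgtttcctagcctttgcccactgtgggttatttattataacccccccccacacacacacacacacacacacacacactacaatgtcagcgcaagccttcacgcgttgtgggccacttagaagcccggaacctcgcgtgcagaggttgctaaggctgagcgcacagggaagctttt

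Both strands were searched over all 32851 promoter entries. The NRF1 site, GCGCATGCGC or the same letters with any base in place of its T, was found in 8 of 33 member promoters (24.2%) and in 4.6% of all. AAGATGGCG was found in 5 (15.2%), against 1.4% of all. TGACNNNGC was found in 8 (24.2%), against 12.4% of all. CCGGAAGT, a site of GABP, was found in 1 (3.03%), against 3.89% of all. Ndufa5 and Ndufa7 have 2 entries each that count separately, and a match is a description of letters only.

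The deposited values are TPM, an abundance per transcript length scaled so that every library has the same total. The mt-Nd mRNAs lay far above the nuclear ones. In 11-month-old wild-type mice mt-Nd3 had 6786 ± 1092 TPM (SD, n = 5), mt-Nd4l 2540.1 ± 552 TPM, mt-Nd1 2375 ± 355 TPM and mt-Nd4 2332 ± 115 TPM. mt-Nd2 had 942 ± 175 TPM, mt-Nd5 753 ± 95.1 TPM and mt-Nd6 319 ± 22.1 TPM. The order of mt-Nd4l, mt-Nd1 and mt-Nd4 changed between these libraries, whereas mt-Nd2 lay above mt-Nd5 in each of the 5. In each of them mt-Nd3 lay above and mt-Nd6 below the other mt-Nd genes. The gene rows of the nuclear members ran from 16.9 ± 3.04 TPM for Ndufs4, an accessory subunit of the matrix arm, to 179.7 ± 45.0 TPM for Ndufb8, an accessory subunit of the membrane arm. The 11-month data list no separate transcript rows, and their gene rows summed to 84.93 to 90.82% of the TPM total. In the 6-month data transcript rows held 60.6% of the summed TPM of Ndufs4, so its 11-month gene row may understate its level.

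In 6-month-old wild-type mice the order of the mt-Nd genes was the same apart from mt-Nd1, at 3014 ± 245 TPM (SD, n = 4), which lay above mt-Nd4l, at 2924 ± 212 TPM. mt-Nd3 was again highest, at 6758 ± 353 TPM, and mt-Nd6 lowest, at 336 ± 24.0 TPM. Among nuclear members Ndufab1, the mitochondrial acyl carrier protein, had the lowest gene row at 15.6 ± 2.38 TPM, and Ndufb8 was highest at 145.9 ± 8.25 TPM. The mt-Nd genes held 1.76 ± 0.0809% of all TPM in these mice and the nuclear members 0.23 ± 0.00628%. For Ndufab1 the 6-month data also list 8 separate transcript rows, which held 85.5% of its summed TPM, so the gene row understates its level. The low level of Ndufb4 rests on how reads are split: the processed pseudogene Ndufb4c is identical to it over 390 bases and was given 81.2 to 83.2% of their summed TPM.

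**Figure D1:**
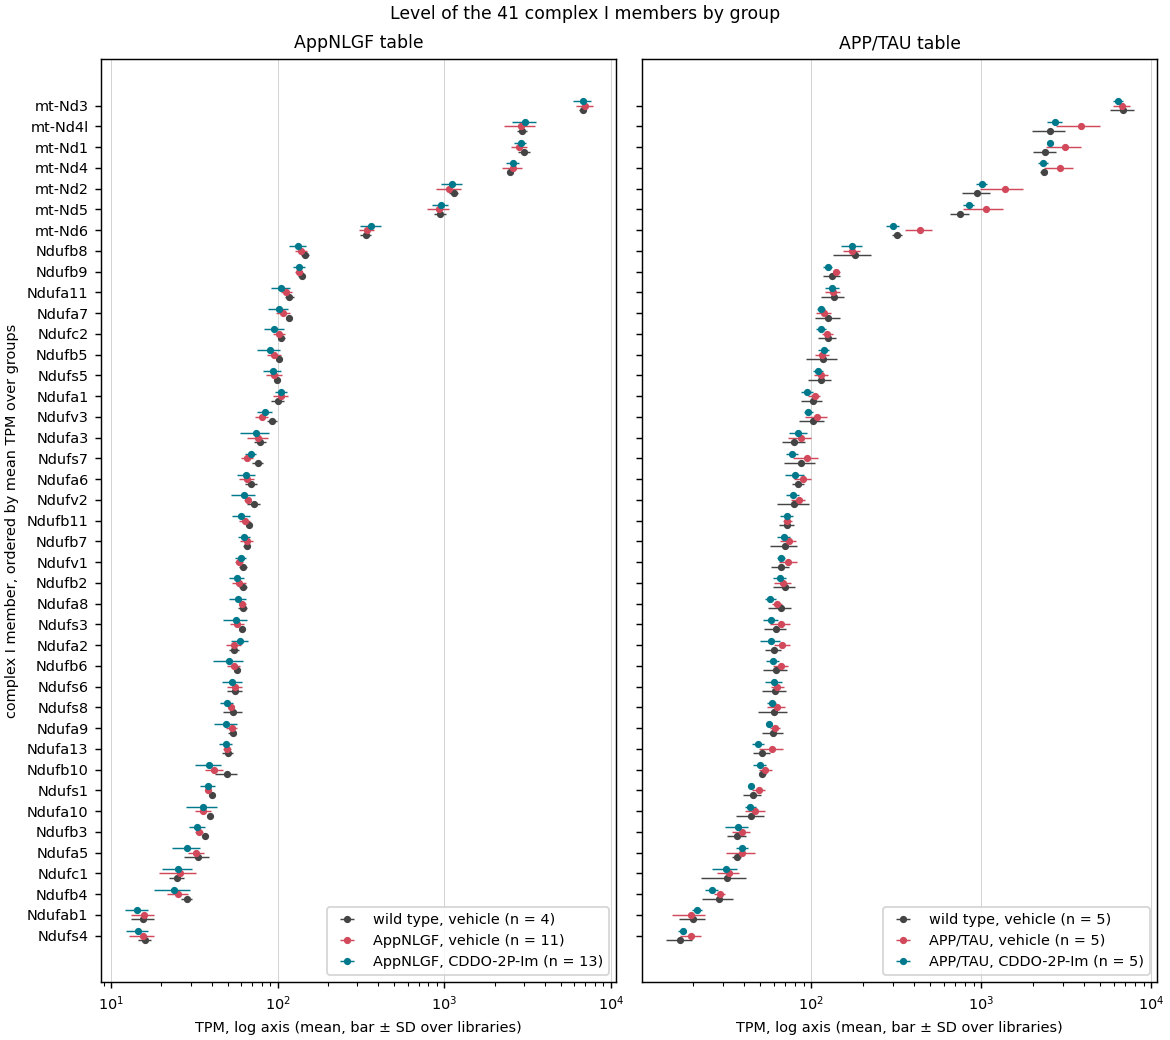
Mean TPM (log axis) with SD of the 41 complex I subunits, ordered by level, in the 3 groups of each table. The 7 mt-Nd genes lie above all nuclear members, and the groups of a table lie close together at each gene.

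Members differed in how much their levels varied between libraries of 1 group. On deposited TPM, as log2(TPM + 1), the within-group SD had a median of 0.16 over nuclear and 0.17 over mitochondrial members in the AppNLGF table. In the APP/TAU table these medians were 0.18 and 0.24. Ndufc1, an accessory subunit of the membrane arm, had the largest SD of the nuclear members in both tables (0.31 and 0.32). The lowest SD of the mitochondrial members in the APP/TAU table was that of mt-Nd3 (0.17) and the largest that of mt-Nd4l (0.33). Over all genes tested the median SD was 0.20 in each table. After median-ratio scaling the medians in the AppNLGF table were 0.121 (nuclear), 0.182 (mitochondrial) and 0.155 (all genes). In the APP/TAU table they were 0.125, 0.243 and 0.143.

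Some libraries stood apart and bear on the APP/TAU results. A single RNA with no symbol in the names used here (ENSMUSG00000118866) took 22 ± 6.6% of the TPM in APP/TAU vehicle libraries, 30.1 ± 3.72% in their wild type and 29.5 ± 1.54% after 2P-Im (SD, n = 5). Its share was 15.8% in vehicle library 2, 15.5% in library 4 and 21.2% in library 1, against 28.5% and 29.1% in libraries 3 and 5. Wild-type library 4 was at 25.0%. The TPM total of a library is fixed, but the gene rows of these data hold only part of it. They held 84.95% and 84.93% in vehicle libraries 2 and 4, and 86.38%, 88.56% and 88.59% in libraries 1, 3 and 5. In wild type they held 87.62 to 90.82%, and after 2P-Im 88.08 to 89.79%. The rest is not listed in these data. Every comparison was also made after median-ratio scaling, in which each library is divided by its median ratio to the mean library. The scaling factors were 1.14, 1.28, 0.98, 1.22 and 0.98 for vehicle libraries 1 to 5. Markers set neuronal and glial RNA well above 0 in every library of both tables: no marker of neurons, astrocytes, oligodendrocytes or microglia was listed at 0. Summed striatal markers had 268 to 337 TPM in 6-month-old and 39.2 to 63.7 TPM in 11-month-old wild-type libraries, and summed cerebellar markers 31.6 to 42.9 TPM and 322 to 484 TPM, so the tables also differ in these region markers. The tables were normalised separately, and no test was made between them.

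No complex I member passed the adjusted test in any of the 6 comparisons, on deposited or on median-ratio values (limma on log2(TPM + 1), adjusted over all genes tested, called at adjusted p below 0.05). The smallest adjusted p of a member was 0.12, for mt-Nd6 in APP/TAU vehicle against wild type. Few genes of any kind were called on the deposited values. Of the 16776 genes tested in AppNLGF mice 0.28% were called between vehicle and wild type, 0.0536% between 2P-Im and vehicle and 0.262% between 2P-Im and wild type. Of 17592 genes tested in APP/TAU mice these shares were 0.0227%, 0% and 0.0227%. After median-ratio scaling the shares were 0.691%, 0.286% and 0.715% in AppNLGF mice and 0.0284%, 0.0114% and 0.0284% in APP/TAU mice. At such shares 0 of 41 called is no result about the members. The counts that follow use unadjusted p below 0.05 and are descriptions, each with the share of all genes that reached it.

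In APP/TAU mice given vehicle, mitochondrial and nuclear complex I mRNAs differed from wild type by unlike amounts. On deposited TPM 6 of 7 mt-Nd genes were higher at unadjusted p below 0.05, where 23.4% of all genes were, and 0 of 34 nuclear members were. No member was lower, as 0.369% of all genes were. The median log2 difference was 0.42 over mt-Nd genes, 0.07 over nuclear members and 0.18 over all genes. So 6 of 7 mt-Nd genes but 2 of 34 nuclear members lay above the median of all genes. After median-ratio scaling the medians were 0.22 over mt-Nd genes and -0.13 over nuclear members, against -0.00 over all genes. Then 11 of 34 nuclear members were lower at unadjusted p below 0.05 (7.13% of all genes), and 1 mt-Nd gene was higher (7.09%) and 1 lower. The direction of the nuclear members thus depended on the scaling. The difference of the mitochondrial minus the nuclear score, defined below, was 0.32 on deposited and 0.31 on scaled values. Scaling divides all genes of a library by the same factor, which nearly cancels in this score. That these values were alike was therefore fixed by the calculation.

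mt-Nd6, a core membrane subunit, was the member with the smallest p in this comparison. Its TPM in the 5 wild-type libraries were 332, 306, 286, 336 and 333, and in the 5 APP/TAU vehicle libraries 409, 498, 389, 532 and 338. The lowest vehicle library, number 5, was just above the highest wild-type one, and libraries 2 and 4 were highest. The log2 difference was 0.42 ± 0.11 (SE), with p = 0.00159 and adjusted p = 0.12 (limma). Groups that did not overlap in this direction were seen for 2.01% of all genes. After median-ratio scaling the groups overlapped, with a difference of 0.22 ± 0.07 and adjusted p = 0.235.

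mt-Nd4l, a small core membrane subunit, had the largest difference of all members, 0.59 ± 0.19 (limma, adjusted p = 0.13). The pseudogenes Gm10222, identical to mt-Nd4l over 294 bases, and Gm28439, identical to mt-Nd4 over 876 bases, were listed at 0 in all libraries of this table, so how their reads were split is uncertain. Its TPM were 2808, 2999, 2417, 1630.02 and 2846 in wild type and 3620, 4341, 2561, 5522 and 3272 in APP/TAU vehicle. Vehicle library 3 lay inside the wild-type range, and wild-type library 4 was lowest by far. mt-Nd2, another proton-pumping subunit, had 1006, 924, 925, 686 and 1170.02 TPM in wild type and 1331, 1702, 891, 1804 and 1110.2 TPM in vehicle. The groups overlapped, and the difference was 0.51 ± 0.17 (limma, adjusted p = 0.137). mt-Nd5, at the far end of the membrane arm, differed by 0.47 ± 0.15, mt-Nd1, which borders the ubiquinone site, by 0.38 ± 0.14, and mt-Nd4 by 0.28 ± 0.11, with adjusted p from 0.13 to 0.168.

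mt-Nd3 did not share this difference. Its TPM were 6171, 5776, 6589, 8611 and 6783 in wild type and 6547, 8044, 6070.1, 6449 and 6541 in vehicle, so the ranges overlapped widely. Wild-type library 4 had the highest mt-Nd3 value of that group and the lowest values of mt-Nd1, mt-Nd2, mt-Nd4l and mt-Nd5. The deposited difference was -0.00 ± 0.11 (limma, adjusted p = 0.979). After median-ratio scaling mt-Nd3 was at -0.21 ± 0.07 (p = 0.0119, adjusted p = 0.24), below 0 as most nuclear members were and opposite in sign to the other 6 mt-Nd genes, and 4 of 5 vehicle libraries lay below all wild-type ones.

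**Figure D2:**
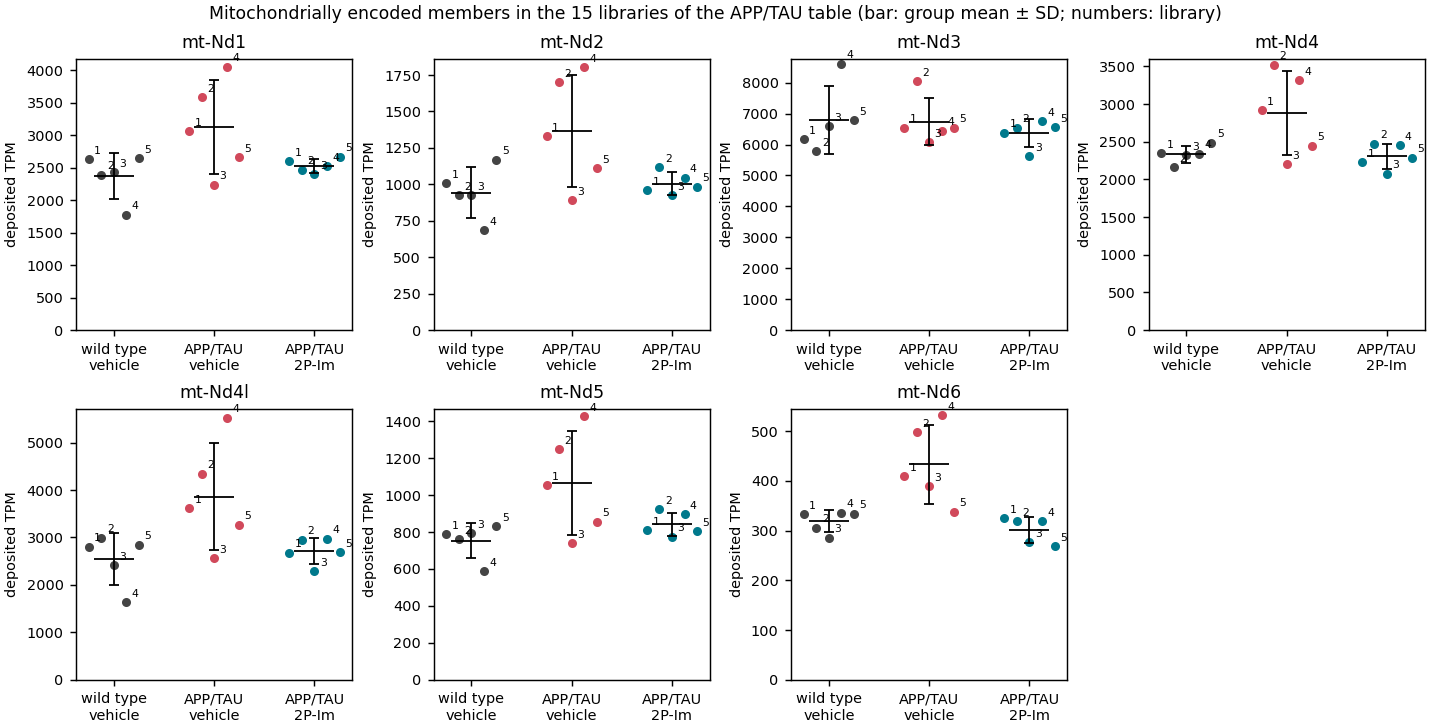
Deposited TPM (axis from 0) of the 7 mt-Nd genes in each of the 15 libraries of the APP/TAU table, with group mean and SD. In 6 panels vehicle libraries 2 and 4 are highest, and in the mt-Nd3 panel the 3 groups overlap.

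The nuclear subunits of the matrix arm were close to their wild-type levels on deposited TPM. The 6 core subunits of this arm differed by 0.06 to 0.14 (median 0.10), with Ndufv1, which binds NADH, at 0.14 ± 0.10. Ndufs4, an accessory subunit whose loss causes Leigh-like disease in mice, had the smallest p of the nuclear members, at 0.21 ± 0.11 (limma, adjusted p = 0.245). This is its gene row only, and in the 6-month data transcript rows held 60.6% of the summed TPM of Ndufs4. Its TPM were 17.1, 14.6, 14.2, 21.8 and 17.0 in wild type and 20.1, 23.1, 17.5, 21.5 and 16.3 in vehicle, and the groups overlapped. Ndufa13 (0.18 ± 0.11) and Ndufa2 (0.16 ± 0.11) followed. With Ndufv1, these 4 differences lay within 0.04 of the median of all genes, 0.18.

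After median-ratio scaling 11 of 34 nuclear members were lower at unadjusted p below 0.05 (7.13% of all genes). Most nuclear members are accessory subunits, and so were most of the lower ones. Lower were 5 of 12 Ndufa subunits, 3 of 10 Ndufb subunits, 1 of 2 Ndufc subunits and 1 of 4 accessory Ndufs and Ndufv subunits, beside 1 of 6 core subunits (Ndufs8). Ndufa7, an accessory subunit of the matrix arm, had scaled TPM of 132.2, 120.5, 130.2, 136.9 and 128.5 in wild type and 97.2, 107.3, 118.8, 97.7 and 109.3 in vehicle. All vehicle libraries were below all wild-type libraries, and libraries 1 and 4 were lowest. The difference was -0.29 ± 0.06 (p = 0.000143, adjusted p = 0.133, limma). The B series, accessory subunits of the membrane arm, lay between -0.24 and -0.10 without exception, and the A series between -0.29 and -0.02. Ndufs4 was the single nuclear member above 0, at 0.01. On deposited TPM the groups of Ndufa7 overlapped, at 128.9, 98.4, 120.6, 158.4 and 123.3 TPM in wild type and 110.7, 136.9, 116.3, 118.8 and 106.6 TPM in vehicle.

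Ndufc2, an accessory subunit of the membrane arm, was the other member whose scaled groups did not overlap. Its scaled TPM were 122.7, 134.8, 132.5, 130.5 and 125.5 in wild type and 113.7, 101.6, 114.4, 109.1 and 118.9 in vehicle. The difference was -0.21 ± 0.05 (p = 0.000369, adjusted p = 0.172, limma). Groups that did not overlap in this direction were seen for 2 of 34 nuclear members and for 1.03% of all genes. Ndufa8 was at -0.26 ± 0.08 and Ndufa11, a membrane subunit between the mitochondrially encoded ones, at -0.21 ± 0.07, with adjusted p of 0.211 and 0.222. Of the promoters printed above, those of Ndufa7 and Ndufa11 hold TGACNNNGC and those of Ndufa8 and Ndufc2 do not.

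A score per library, the mean log2(TPM + 1) over the members of each genome, set the genomes side by side and was not tested. With 5 libraries a group, the deposited mitochondrial score was 10.59 ± 0.13 (SD) for wild type, 10.96 ± 0.31 for vehicle and 10.63 ± 0.09 for 2P-Im. The nuclear score was 6.04 ± 0.17, 6.10 ± 0.10 and 6.00 ± 0.08 in the same order, and after scaling 6.10 ± 0.07, 5.95 ± 0.08 and 6.08 ± 0.06. The mitochondrial minus the nuclear score was 4.68, 4.69, 4.54, 4.07 and 4.74 in wild type and 4.85, 4.98, 4.56, 5.16 and 4.75 in vehicle. Vehicle library 3 lay within the wild-type range, library 5 just above it, and libraries 1, 2 and 4 further up. After 2P-Im the values were 4.66, 4.62, 4.61, 4.69 and 4.58, all inside the wild-type range.

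**Figure D3:**
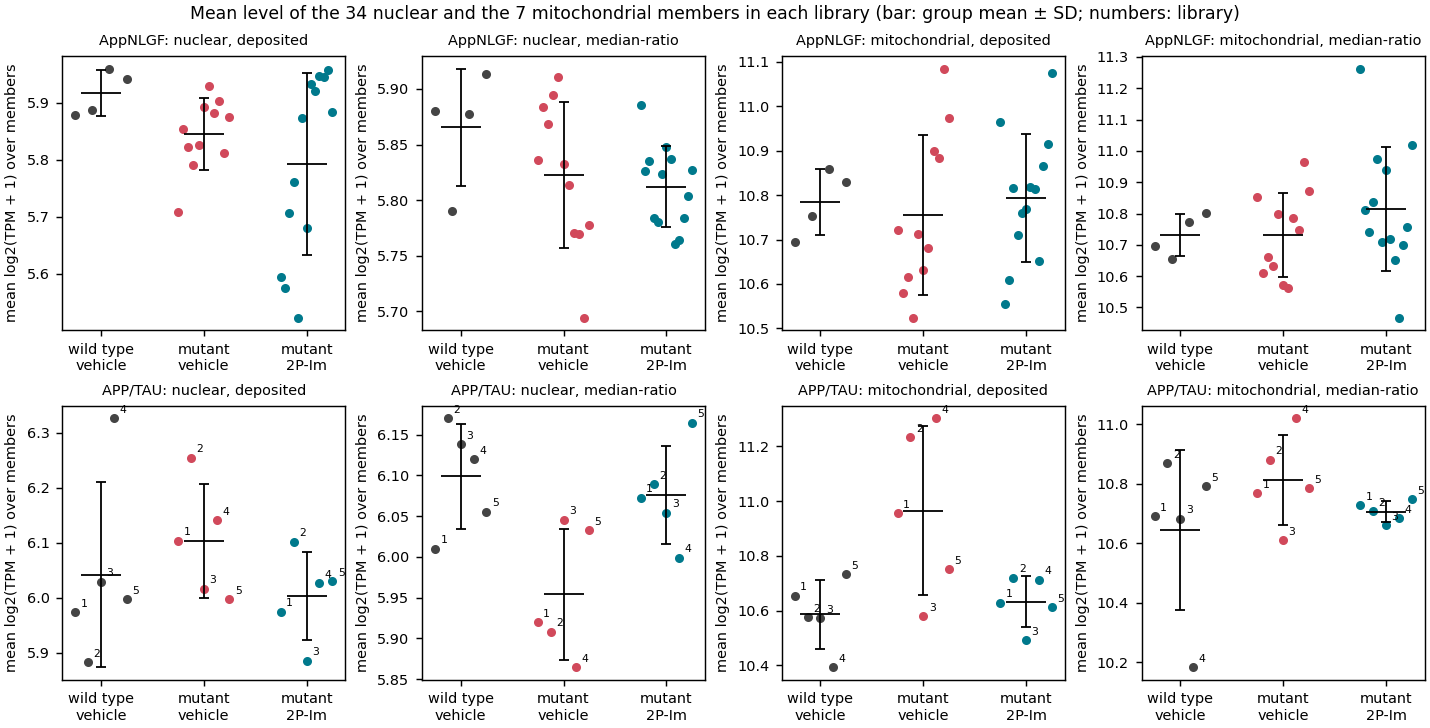
Mean log2(TPM + 1) over the 34 nuclear and the 7 mitochondrial members in every library, for both tables, deposited and median-ratio scaled, with group mean and SD (bars). Within the APP/TAU vehicle group, where library numbers are drawn, libraries 2 and 4 have the highest mitochondrial scores and, with library 1, the lowest scaled nuclear scores.

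These counts depended on the libraries that stood apart. Without vehicle libraries 2 and 4, 1 of 7 mt-Nd genes was higher than in wild type on deposited TPM (5.28% of all genes), the mitochondrial score differed by 0.18 instead of 0.38, and 2 of 34 nuclear members were lower after scaling (3.77% of all genes). Without wild-type library 4, 5 of 7 mt-Nd genes and 5 of 34 nuclear members were higher on deposited TPM, where 43.1% of all genes were. The scaled mitochondrial score then differed by 0.05 in place of 0.17, and the scaled nuclear score by -0.14 in both cases. The 11 scaled nuclear members that were lower became 5 without vehicle library 4 and 6 without wild-type library 3. The 1 scaled mt-Nd gene that was higher became 4 without vehicle library 3, 3 without wild-type library 2 and 2 without wild-type library 5. The share of all genes moves with the library left out (43.1% above, against 23.4% with all libraries) and is not given for these counts. They therefore do not tell a change of the members from one of the whole table. Without vehicle library 3, Ndufa7 passed the adjusted test on scaled TPM (log2 difference -0.33, adjusted p = 0.0421, limma). The share of the abundant RNA moved with these results, and its part in them was not tested.

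Other respiratory genes were taken from lists named with the members. On scaled TPM 26 of 39 nuclear subunits of complexes II to V were lower in APP/TAU vehicle at unadjusted p below 0.05 and 0 were higher. Their median was -0.16. Of all genes 7.13% were lower and 7.09% higher on this scale. The smallest p values were those of Sdhc (-0.22 ± 0.05), Uqcrq (-0.33 ± 0.08) and Uqcr10 (-0.27 ± 0.06), subunits of complexes II and III. Cytosolic ribosomal proteins, which have no part in respiration, gave 18 of 29 lower and a median of -0.19. On deposited TPM the medians were 0.05 over complexes II to V, with 1 of 39 lower and 0 higher, and 0.01 over ribosomal proteins, with 2 of 29 higher. Of 21 assembly factors of complex I, 1 (Ecsit, -0.15 ± 0.05) was lower, and of 24 genes for mitochondrial transcription and RNA upkeep 0 were. On deposited TPM, where 23.4% of all genes were higher, 4 of the 6 other mitochondrial mRNAs were (median 0.28), led by mt-Atp8 at 0.71 ± 0.18, while mt-Co1 was at 0.06. Both mitochondrial rRNAs were higher as well (median 0.47). After scaling 1 of 6 mRNAs, mt-Atp8, was higher (median 0.08, with mt-Co1 at -0.15), and 0 of 2 rRNAs were (median 0.26). Ndufb1-ps, outside the list, was at 0.08. No gene of these lists passed the adjusted test.

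Cell type markers were set beside these values. Summed neuronal markers had 1555 to 2177 TPM in wild type, 1767 to 2327 TPM in APP/TAU vehicle and 1585 to 1869 TPM after 2P-Im. Of 6 neuronal markers, 2 were higher in vehicle than in wild type on deposited TPM (median 0.21) and 5 were lower after 2P-Im than in vehicle (median -0.26), at unadjusted p below 0.05. All genes had 23.4% higher with a median of 0.18 and 26.4% lower with a median of -0.19 in these comparisons. After scaling 1 neuronal marker was higher in vehicle and 1 lower after 2P-Im, and the summed markers had means of 1888, 1840.0 and 1804 TPM in wild type, vehicle and 2P-Im. Red cell markers summed to 11.9 to 35.3 TPM in wild type, 15.8 to 284 TPM in vehicle and 12.1 to 147 TPM after 2P-Im. Of 4 red cell markers 3 were tested and 2 were higher in vehicle, as were 2 of 4 endothelial markers, and 0 of 5 astrocyte, 0 of 5 microglia and 0 of 5 oligodendrocyte markers passed in either direction. Their part in the complex I results was not tested, and in whole tissue fewer cells of a type and less RNA per cell cannot be told apart.

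In APP/TAU mice given 2P-Im, 4 of 7 mt-Nd genes were lower than in vehicle at unadjusted p below 0.05 on deposited TPM and 1 was after scaling. This comparison shares its vehicle libraries with the previous one, so the values are not an independent second result. With these 4 mt-Nd genes, 2 of 34 nuclear members were lower on deposited TPM, where 26.4% of all genes were, and 0 were higher (0.438%). The medians were -0.30 over mt-Nd genes, -0.11 over nuclear members and -0.19 over all genes. Above the median of all genes lay 31 of 34 nuclear members and 1 of 7 mt-Nd genes. After scaling, 6 of 34 nuclear members were higher (4.66% of all genes), with a nuclear median of 0.11, and 1 mt-Nd gene was lower (4.18%), with a mitochondrial median of -0.08.

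mt-Nd6 had 325, 318, 277, 319 and 269 TPM after 2P-Im, all below the 338 to 532 TPM of the vehicle libraries and next to the 286 to 336 TPM of wild type. The difference from vehicle was -0.51 ± 0.11 (p = 0.000348, adjusted p = 0.167, limma). Groups that did not overlap in this direction were seen for 3.62% of all genes. After scaling the difference was -0.28 ± 0.07 (adjusted p = 0.411), and 4 of 5 treated libraries lay below all vehicle libraries. Without vehicle libraries 2 and 4, 1 of 7 mt-Nd genes was lower on deposited TPM, where 3.68% of all genes were. The 4 mt-Nd genes lower on deposited TPM became 1 without vehicle library 2 or 4 and 2 without treated library 3. The 2 nuclear members became 0 to 4 when single libraries were left out, 4 of them without vehicle library 5 or wild-type library 4. The 6 scaled nuclear members that were higher became 10 without vehicle library 5 or treated library 4. The shares of all genes with single libraries left out are not given, so these counts do not tell the members from the whole table.

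The other mt-Nd genes gave smaller differences from vehicle. mt-Nd4l was at -0.46 ± 0.19, with 2681, 2957, 2291, 2977 and 2684 TPM after 2P-Im, and 1 treated library lay below all vehicle libraries. Vehicle library 3 was below every treated library for mt-Nd1, mt-Nd2 and mt-Nd5. mt-Nd2 was at -0.40 ± 0.17, mt-Nd4 at -0.30 ± 0.11, mt-Nd5 at -0.30 ± 0.15 and mt-Nd1 at -0.27 ± 0.14. mt-Nd3 was at -0.08 ± 0.11, with 6381, 6547, 5620.3, 6755 and 6555 TPM after 2P-Im, and overlapped the vehicle libraries. The treated libraries were close together: the SD of the mitochondrial minus the nuclear score was 0.04, against 0.23 in vehicle and 0.28 in wild type.

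By role, the deposited median was -0.14 over the core subunits of the matrix arm, -0.11 over the Ndufs and Ndufv accessory subunits, -0.10 over the A series, -0.09 over the B series and -0.10 over Ndufc1 and Ndufc2. After scaling these medians were 0.08, 0.11, 0.12, 0.13 and 0.12. Among nuclear members the smallest deposited p values were those of Ndufa13, an accessory subunit at the joint of the arms also known as GRIM-19 (-0.25 ± 0.11, adjusted p = 0.171, limma), Ndufa2 (-0.22 ± 0.11), Ndufs7, a core subunit that carries the last iron-sulfur cluster (-0.27 ± 0.13), and Ndufb9 (-0.16 ± 0.08). The gene of Ndufa13 overlaps Tssk6 on the opposite strand, as Ndufb5 overlaps Mrpl47, and without strand their reads cannot be told apart. Ndufs7 had 94.0, 120.7, 85.4, 89.1 and 79.6 TPM in vehicle and 79.0, 82.5, 69.0, 72.1 and 82.4 TPM after 2P-Im. The groups overlapped, and vehicle library 2 was highest. After scaling the leading members were others: Ndufa7 (0.18 ± 0.06), Ndufa11 (0.21 ± 0.07), Ndufb11 (0.21 ± 0.08) and Ndufb5 (0.25 ± 0.09), with adjusted p from 0.477 to 0.504. Ndufa7 had scaled TPM of 119.98, 124.4, 123.0, 108.0 and 123.9 after 2P-Im, and 4 of 5 libraries lay above all vehicle libraries. On deposited TPM it was at -0.04 ± 0.11.

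**Figure D4:**
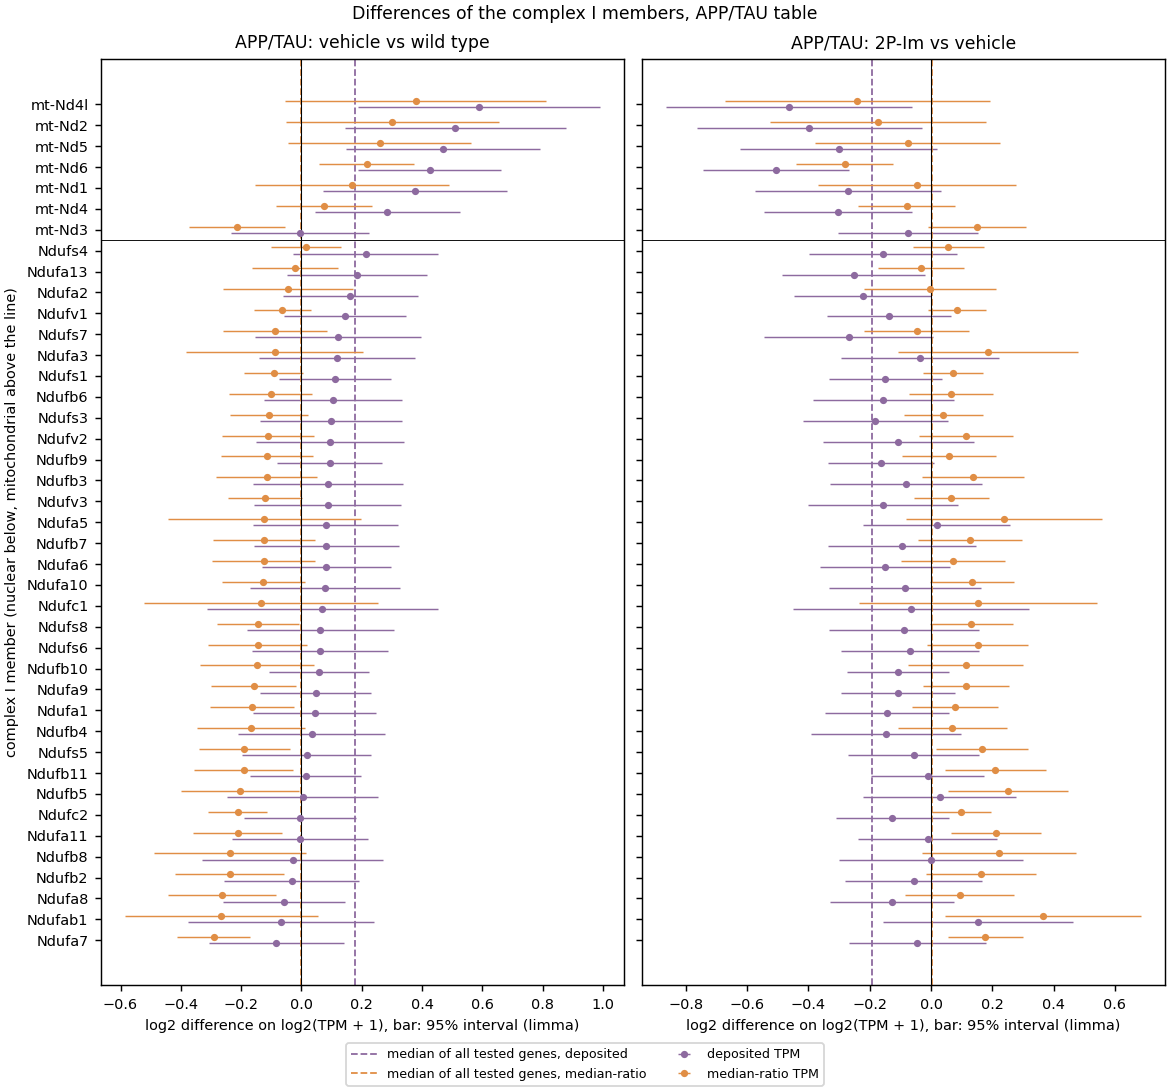
Log2 differences with 95% intervals of the 41 members in APP/TAU vehicle against wild type and in 2P-Im against vehicle, on deposited (purple) and median-ratio scaled values (orange), with the median of all tested genes dashed. Most mt-Nd genes lie to the right of the dashed line in the first panel and to the left in the second, and most nuclear members lie on the other side of it.

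After scaling 22 of 39 nuclear subunits of complexes II to V were higher after 2P-Im than in vehicle (median 0.14), where 4.66% of all genes were. The smallest p among them was that of Atp5g2 (1.06 ± 0.28), a c subunit of ATP synthase. Also higher were 18 of 29 ribosomal proteins (median 0.19) and 2 of 21 assembly factors (Foxred1 and Tmem242). On deposited TPM, where 26.4% of all genes were lower, 5 of the 6 other mitochondrial mRNAs (median -0.29) and both rRNAs (median -0.51) were. After scaling 0 of 6 and 0 of 2 were, with medians of -0.07 and -0.29. The deposited medians of the nuclear lists were -0.08 over complexes II to V (1 of 39 higher, 0 lower) and -0.04 over ribosomal proteins (1 of 29 lower). Compared with wild type, 0 of 41 members of 2P-Im mice reached unadjusted p below 0.05 on deposited TPM, where 1.29% of all genes were higher and 0.87% lower. After scaling 1 did: Ndufc2, at -0.12 ± 0.05 (adjusted p = 0.577, limma), where 3.94% of all genes were lower and 3.89% higher. Ndufa8 (-0.18 ± 0.10), Ndufc2 (-0.13 ± 0.09), Ndufa7 (-0.13 ± 0.11), Ndufs7 (-0.15 ± 0.13), mt-Nd5 (0.17 ± 0.15) and mt-Nd3 (-0.08 ± 0.11) had the smallest deposited p values of their genome.

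In the AppNLGF table, the complex I mRNAs of vehicle mice lay close to wild type in both genomes. On deposited TPM 2 of 34 nuclear members were lower at unadjusted p below 0.05 (2.47% of all genes), 0 were higher (1.69%), and 0 of 7 mt-Nd genes were either. The median differences were -0.07 over nuclear members, -0.03 over mt-Nd genes and -0.03 over all genes. After scaling 3 nuclear members were lower (3.21% of all genes) and 0 higher (3.84%). Of 5 astrocyte markers 1, Gfap, passed the adjusted test as higher on both scales, and of 5 microglia markers 2 did after scaling, Csf1r among them. Of 5 oligodendrocyte markers 1 was lower at unadjusted p below 0.05 on deposited TPM (median -0.14) and 0 after scaling (median -0.11). In addition 3 of 3 tested red cell markers were lower at unadjusted p below 0.05 (median -1.52). Their part in the complex I values was not tested.

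Ndufs7 had the smallest p. Its TPM were 67.5, 74.5, 80.1 and 80.5 in the 4 wild-type libraries, and ran from 58.1 over a median of 65.4 to 74.9 in the 11 vehicle libraries. Of the vehicle libraries 9 lay below all wild-type ones, and the ranges overlapped. The difference was -0.21 ± 0.07 (p = 0.00447, adjusted p = 0.475, limma). The AppNLGF table also lists 105 separate transcript rows of 26 members, which held over 20% of the summed TPM for 13 of them, and with those of Ndufs7 added to its gene row the difference was -0.09 (adjusted p = 1.0), so its size depends on whether these rows are added.

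Ndufv3, an accessory subunit bound to the NADH-oxidising part, had 91.3, 90.9, 86.3 and 101.4 TPM in wild type and 67.5 to 89.5 TPM in vehicle, with a median of 78.8. The difference was -0.21 ± 0.08 (adjusted p = 0.809, limma) and was -0.22 with the transcript rows added. Ndufb10, an accessory subunit of the membrane arm, had 39.7, 47.6, 53.9 and 56.0 TPM in wild type and 31.5 to 48.2 TPM in vehicle (median 41.4), a difference of -0.24 ± 0.13 that was -0.16 with the transcript rows added. Ndufb3 was at -0.12 ± 0.07, with 10 of 11 vehicle libraries below all wild-type ones. In all of these the groups overlapped by at least 1 library. By role, the medians were -0.08 over the core subunits of the matrix arm, -0.06 over the Ndufs and Ndufv accessory subunits, -0.02 over the A series, -0.09 over the B series and -0.01 over the C series. Leaving out wild-type library 4 left 1 of the 2 deposited and 0 of the 3 scaled members past the unadjusted threshold. Leaving out wild-type library 3 left 1 of the 3 scaled members. The shares of all genes in these settings are not given. No member had groups that did not overlap, against 0.262% of all genes lower and 0.399% higher.

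The mt-Nd genes of AppNLGF vehicle mice differed from wild type by at most 0.11 on the log2 scale. mt-Nd1 had 2882, 2734, 3209 and 3230 TPM in wild type and 2369 to 3259 TPM in vehicle (median 2857), at -0.11 ± 0.08, and mt-Nd2 was at -0.11 ± 0.12. mt-Nd6 had 303, 349, 358 and 334 TPM in wild type and 303 to 403 TPM in vehicle (median 328). The vehicle range spanned the wild-type range in both genes. Wild-type mice had a mitochondrial minus nuclear score of 4.87 ± 0.04 (SD), vehicle mice of 4.91 ± 0.18 and 2P-Im mice of 5.00 ± 0.17.

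In AppNLGF mice given 2P-Im, compared with vehicle, 1 of 34 nuclear members (Ndufa5, lower) and 0 of 7 mt-Nd genes reached unadjusted p below 0.05 on deposited TPM, where 3.97% of all genes were lower and 2.21% higher. The medians were -0.06 over nuclear members, 0.04 over mt-Nd genes and -0.04 over all genes. All 7 mt-Nd genes and 13 of 34 nuclear members lay above the median of all genes. After scaling 2 nuclear members were higher (6.54% of all genes), 1 was lower (5.94%), and 0 of 7 mt-Nd genes were either. Ndufa5, an accessory subunit of the matrix arm, had 28.4 to 41.7 TPM in vehicle (median 30.9) and 21.8 to 42.4 TPM after 2P-Im (median 27.7). Its difference was -0.18 ± 0.09 (adjusted p = 0.778, limma) and was -0.02 with transcript rows added.

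Ndufa2, an accessory matrix-arm subunit with a thioredoxin fold, had 41.9 to 61.5 TPM in vehicle (median 55.7) and 46.7 to 70.6 TPM after 2P-Im (median 59.7), at 0.12 ± 0.06. Ndufa11 was at -0.11 ± 0.06 and Ndufa8 at -0.09 ± 0.05. mt-Nd6 had 275 to 445 TPM after 2P-Im (median 373), at 0.08 ± 0.07, and mt-Nd4l 2475 to 4315 TPM (median 2984), at 0.09 ± 0.10. After scaling the smallest p values were those of Ndufa9 (-0.08 ± 0.03, adjusted p = 0.281, limma) and Ndufv3 (0.10 ± 0.04, adjusted p = 0.311). All of these groups overlapped. The count of 1 lower deposited member ran from 0 to 5 as single libraries were left out, with 5 without treated library 11. The shares of all genes in these settings are not given, so the counts do not tell the members from the whole table.

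The labels number these libraries, and the share of the abundant RNA moved with the numbers: it was 34.4 to 38.0% in vehicle libraries 1 to 5 and 29.1 to 33.2% in later ones, and 32.5 to 40.0% and 28.3 to 37.2% after 2P-Im. Within numbers 1 to 5, 13 of 34 nuclear members were lower after 2P-Im at unadjusted p below 0.05 (17.7% of all genes), with medians of -0.19 over nuclear members, 0.09 over mt-Nd genes and -0.10 over all genes. Within numbers 6 and above 0 were lower (2.83% of all genes), 2 were higher (2.10%), and the medians were 0.00 and -0.04. The mitochondrial minus the nuclear score differed by 0.27 in the first set, by -0.04 in the second and by 0.09 over all libraries. The difference over all libraries was smaller than the within-group SD of this score (0.17), and its sign was the opposite within the later numbers. These score differences were not tested.

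**Figure D5:**
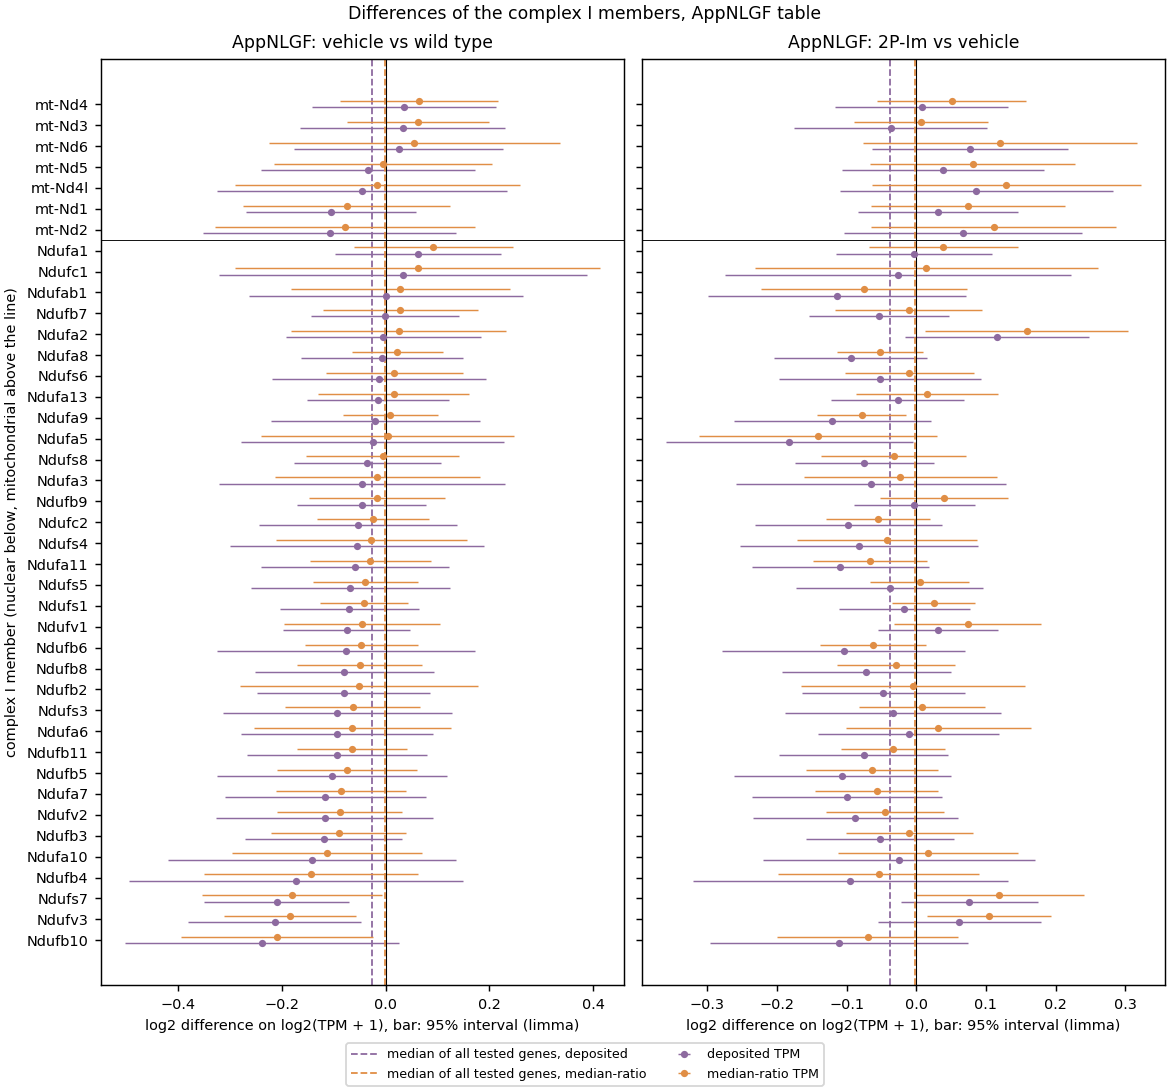
Log2 differences with 95% intervals of the 41 members in AppNLGF vehicle against wild type and in 2P-Im against vehicle, on deposited (purple) and median-ratio scaled values (orange), with the median of all tested genes dashed. Most intervals include 0, and the mt-Nd genes lie to the right of the dashed line in the second panel.

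Against wild type, AppNLGF mice given 2P-Im had 5 of 34 nuclear members lower at unadjusted p below 0.05 (5.67% of all genes), 0 members higher (2.06%) and 0 of 7 mt-Nd genes lower. After scaling 5 were lower (5.51%) and 0 higher (6.1%). Ndufb10 was lowest, with 25.4 to 51.5 TPM (median 40.3) against the 39.7 to 56.0 TPM of wild type, at -0.35 ± 0.13 (p = 0.0098, adjusted p = 0.52, limma), and 6 of 13 treated libraries lay below all wild-type ones. Ndufb3 (-0.17 ± 0.07), Ndufa7 (-0.22 ± 0.09) and Ndufb11 (-0.17 ± 0.08) had 11, 10 and 10 treated libraries below all wild-type ones. Ndufa7 had 115.6, 114.3, 113.8 and 123.0 TPM in wild type and 78.2 to 127.8 TPM after 2P-Im (median 101.1). Of these 5 members 3 belong to the B series, whose median was -0.17, against -0.11 over the A series and -0.12 over the core subunits. mt-Nd6 was at 0.10 ± 0.10 and mt-Nd1 at -0.07 ± 0.08. The count of 5 lower deposited members ran from 2, without wild-type library 3 or 4, to 8, without treated library 10, 11 or 12. The shares of all genes in these settings are not given, so the counts do not tell the members from the whole table. With transcript rows added the count was 3 (4.32% of all genes). Over all members the nuclear median was -0.13 and the mitochondrial median 0.00, with -0.06 over all genes.

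The related lists in the AppNLGF table gave few values past the unadjusted threshold. In vehicle against wild type, 0 of 39 subunits of complexes II to V and 0 of 21 assembly factors did so on deposited TPM. Of the other mitochondrial mRNAs 1 of 6 was higher, mt-Co2 (0.46 ± 0.19), as were 1.69% of all genes. In 2P-Im against vehicle 2 of 39 subunits of complexes II to V and 1 of 21 assembly factors were lower, near the 3.97% of all genes that were. Both mitochondrial rRNAs were higher (median 0.22), as were 2.21% of all genes. No gene of these lists passed the adjusted test.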

How the data were processed

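The authors deposited TPM values per gene, in a separate file for each cohort. Salmon and the build GRCm38 (mm10) are named in the submitters' processing notes, without a version, an annotation or a strand setting. The RNA was extracted with Sepasol and libraries made with the MGIEasy RNA Directional Library Prep Set, per the labels' protocols. TPM keep no depth, so the depth is unknown and no interval from counts is printed. Gene rows were matched to symbols and members by identifier.

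Genes with a mean of at least 1 TPM over a table were tested on log2(TPM + 1), where folds of low genes are understated, with limma 3.58.1 in R 4.3.3, fitting each group's mean, with trended moderation, two-sided, Benjamini-Hochberg over all genes, called at adjusted p below 0.05. All 3 groups of a table entered 1 fit. The script was tested on simulated data. The alternatives were median-ratio scaling, rescaling without mt- genes and the 20 most abundant rows, a pseudocount of 0.1, no filter, a minimum of 5 TPM, only the groups compared, a replicate block (also scaled), AppNLGF replicate numbers 1 to 5 and 6 and above apart, leaving out each library, and, chosen after seeing the data, adding the separate transcript rows of the AppNLGF table (64708 in all, 60094 matched) to their genes and leaving out APP/TAU vehicle libraries 2 and 4. Copies of members were searched at 95% identity over at least 250 bases.

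The members and lists were chosen with earlier results of these data known. Named in full were all mt-Nd genes and, in each comparison, the 4 nuclear and 2 mitochondrial members with the smallest p, and up to 3 genes of each other list. Libraries were grouped by their titles. Replicate numbers were checked for pairing by the correlation of same-numbered libraries, which was low. Such a check cannot exclude pairing or a shared batch.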

Additional observations from a re-analysis of the deposited data

Results flagged for a closer look

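In groups of 4 to 10 libraries the highest or lowest value on deposited TPM was set against the rest. The measure was its gap divided by the whole range (Dixon's 95% critical value). Of 176 tests, each of 1 member or score in 1 group, 13 (7.39%) passed, and chance flags about 1 in 20 groups. Wild-type library 4 of the 11-month-old mice accounted for 7 of the 13. It was highest for Ndufb8 at 258 TPM (others 151 to 178), Ndufv2 at 109 TPM (67.8 to 75.3), Ndufs6 at 77.9 TPM (53.95 to 59.1), Ndufs3 at 77.5 TPM (56.0 to 60.8) and Ndufa10 at 59.5 TPM (39.5 to 42.4). It was lowest for mt-Nd1 at 1773 TPM (2394 to 2646) and for the mitochondrial minus the nuclear score at 4.07 (4.54 to 4.74). Core and accessory subunits of the matrix and membrane arms were among these genes. This library had a scaling factor of 1.157. After scaling it was not the highest for Ndufs6 (67.4 TPM, against 70.0 in library 2) or Ndufs3 (67.0 TPM, against 68.6 in library 2). It stayed highest for Ndufb8, Ndufv2 and Ndufa10 and lowest for mt-Nd1 and the score.

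In the APP/TAU vehicle group mt-Nd3 was highest in library 2, at 8044 TPM (others 6070.1 to 6547). After scaling library 5 was highest for mt-Nd3, at 6703 TPM against 6301 TPM in library 2. In the APP/TAU mice given 2P-Im, library 3 was lowest for Ndufa1 at 80.6 TPM (95.7 to 99.1) and for Ndufs1 at 40.6 TPM (44.4 to 45.2). Library 2 was highest for Ndufa7 at 125.5 TPM (109.3 to 112.7). After scaling Ndufs1 was lowest in library 4, at 43.9 TPM against 45.7 TPM in library 3. In 6-month-old wild-type mice Ndufb4 was highest in library 1, at 31.3 TPM (27.0 to 27.4), and Ndufs8 in library 4, at 64.0 TPM (49.3 to 51.4).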

How the results depend on the processing

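The number of members that passed the adjusted test stayed at 0 in every comparison on deposited TPM and under every alternative run, with these exceptions. With a replicate block, 11 nuclear members were called lower in AppNLGF 2P-Im against wild type, where 19.2% of all genes were called; with the block and median-ratio scaling 0 were. Correlations of same-numbered libraries were low (from -0.0814 to 0.118), and the same number was the best match for 0 of 4 to 3 of 5 pairs. This does not exclude that the numbers pair samples or mark a batch. The block left out AppNLGF treated libraries 12 and 13, whose numbers no other group has. It changed no other count. Leaving out each library on median-ratio values gave 0 to 1 called members in APP/TAU vehicle against wild type, the 1 being Ndufa7 without vehicle library 3.

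Scores moved by more than the spread between libraries in the APP/TAU table. With median-ratio scaling the vehicle minus wild-type difference was -0.145 (nuclear) and 0.169 (mitochondrial), and the 2P-Im minus vehicle difference 0.122 and -0.107. Rescaled without mt- genes and the 20 most abundant rows, these were -0.115 (nuclear, vehicle against wild type) and 0.101 and -0.13 (nuclear and mitochondrial, 2P-Im against vehicle). Without vehicle libraries 2 and 4 the mitochondrial differences were 0.176 and -0.129. Within AppNLGF replicate numbers 1 to 5 the mitochondrial minus nuclear difference of 2P-Im against vehicle was 0.269.

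Median-ratio scaling took the nuclear members above 0 from 27 to 1 of 34 in APP/TAU vehicle against wild type, and all genes from 89.9% to 49.1%. In 2P-Im against vehicle it took the nuclear members from 3 to 31 of 34, and all genes from 9.8% to 51%. In that comparison, 3 of the members named by the rule changed direction with an interval that left out 0. With median-ratio scaling Ndufa7 went to 0.178, Ndufa11 to 0.212 and Ndufb11 to 0.21. Rescaled without mt- genes and abundant rows they went to 0.156, 0.19 and 0.189. Over all comparisons, another 41 values of named genes changed sign with both intervals including 0 under the alternatives that did not leave out single libraries. With single libraries left out 101 values did so. Apart from the scalings, which change what each library is divided by, the cause was not tested. TPM hold no depth, so what it limits cannot be given.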
